A study of Mus musculus with 24 samples.

Results

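The soleus (SOL) and the gastrocnemius (GAS) of sedentary old mice were compared. The comparison used the 3 SOL and the 3 GAS libraries of old control (OC) mice, 6 of the 24 RNA sequencing libraries of the study. It covered all 18795 genes of the table. The libraries were picked by their labels, and the comparison was chosen with earlier results of these data known. The OC mice were male C57BL/6 mice labelled as 84 weeks old that did no treadmill exercise. The libraries of both muscles carry the numbers 3, 4 and 5, which are taken as 3 mice that gave both muscles. The other groups used here were old exercised (OE) mice of the same age, which ran on a treadmill for 4 weeks, and young control (YC) mice labelled as 9 weeks old, with 3 libraries per muscle in each. Every library was made from whole muscle, so a level is a mean over fibers, vessels, nerve, connective tissue and resident immune cells.

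The SOL is the postural muscle of the calf. In mice it holds slow type I and fast oxidative type IIa fibers, whereas the GAS beside it is made up mostly of fast glycolytic type IIb fibers. The fiber types are told apart by the isoform of myosin heavy chain that they use, and troponin, tropomyosin, myosin light chain and calcium pump genes come in matching slow and fast copies. Slow fibers contract slowly, resist fatigue and burn fat in many mitochondria, and fast glycolytic fibers draw on glycogen.

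The levels are FPKM, fragments per kilobase of transcript scaled to the size of the library, so they already allow for transcript length. A log2 fold change is the mean SOL OC value minus the mean GAS OC value on the scale of log2(FPKM + 1) after quantile normalization, which forces every library to the same distribution. The added 1 understates the change of low genes. Tests are from limma, two-sided, and adjusted p is Benjamini-Hochberg adjusted over all 18795 genes. The fit took in all 24 libraries in 8 groups, so a standard error pools the spread within all groups, not that of OC alone. Young exercised (YE) mice, labelled as 9 weeks old with 4 weeks of exercise, were in the fit and the normalization but were not compared. A gene past an adjusted p of 0.05 is called higher or lower. No table of reads entered the work, so the depth behind each value is unknown. The FPKM of a library summed to between 399907 and 424906 in SOL OC and between 483898 and 500016 in GAS OC, of which the top 10 genes took 16.1% to 17.9% in SOL OC and 31.7% to 34.1% in GAS OC. Genes common to all muscle fibers were abundant in all 6 libraries: Acta1, the actin of skeletal muscle, was between 19705 and 23343 FPKM in SOL OC and between 28460.4 and 32593 FPKM in GAS OC. They were not level between the muscles. Of 6 such markers 3 were higher and 2 lower in SOL OC. Without quantile normalization, or with the mouse as a block, 3 were higher and 1 lower, and with median ratio scaling 2 were higher and 1 lower. Ckm, named after its value was seen, averaged 5099.1 FPKM in SOL OC against 19704.7 FPKM in GAS OC (log2 fold change -0.50, adjusted p = 0.0249). The quantile step sets the most abundant genes by rank, so the FPKM of Ckm differed more than this log2 fold change. Acta1 had a log2 fold change of 0.0 after that step, though its FPKM ranges lay apart.

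The muscles differed in 7026 of 18795 genes (37.4%). Of these, 3677 genes were higher (19.6%) and 3349 lower (17.8%) in SOL OC than in GAS OC. Of the 10955 genes that reached 1 FPKM in 3 or more of the 6 libraries 5837 differed (53.3%). Most differences were small. The median log2 fold change was 0.48 among the higher genes and -0.51 among the lower genes, and 545 higher and 514 lower genes exceeded 1 on the log2 scale. Counted as differentially expressed genes (DEGs) at a fold change over 2 and a p under 0.05 before adjustment, there were 1070 genes (5.69%), 551 higher and 519 lower in SOL OC. The split between directions depended on the scaling. When the quantile step was left out 5227 genes were higher and 2302 lower, so that 69.4% of the called genes were higher in SOL OC against 52.3% with it, and the median log2 fold change of the 10955 genes was 0.17 in place of 0.01. With median ratio scaling 3946 were higher and 3131 lower.

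**Figure D1:**
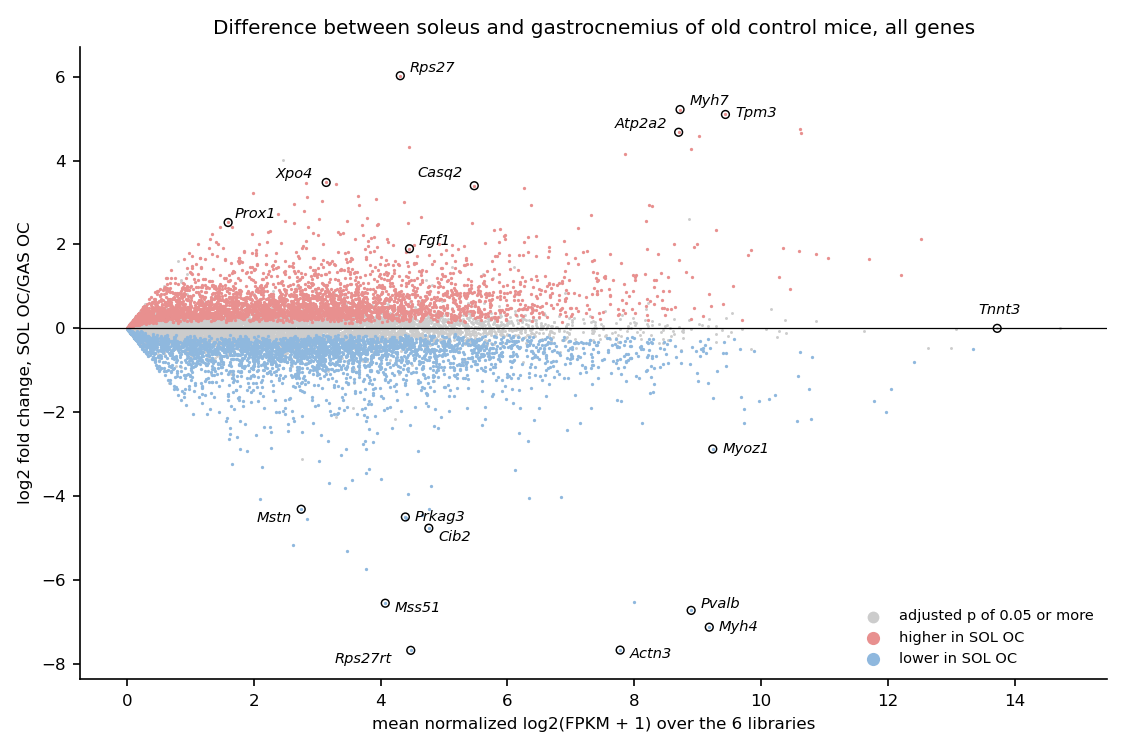
Log2 fold change of SOL OC/GAS OC (vertical) against the mean normalized log2(FPKM + 1) of the 6 libraries (horizontal), 1 point per gene, with genes at an adjusted p under 0.05 in color. The slow genes Myh7, Tpm3 and Atp2a2 stand at the top right, the fast genes Myh4, Actn3 and Pvalb at the bottom right, and Tnnt3 lies at 0 at the far right.

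Slow contractile genes were higher in SOL OC without exception. All 14 genes of the list passed the test, with a median log2 fold change of 4.21, against a median of 0.00 over all 18795 genes. Over all genes 19.6% were higher. All 14 reached 1 FPKM, and of the 10955 such genes 3031 were higher. Myh7 (gene ID 140781, chromosome 14, 54970684 to 54994626 of GRCm38.p6) encodes the slow myosin heavy chain. It was at 2499, 2197 and 3206 FPKM in SOL OC replicates 3, 4 and 5, against 54.3, 66.1 and 94.9 FPKM in GAS OC. The groups were far apart (log2 fold change 5.22, standard error 1.15, adjusted p = 0.00134). Myl3, the slow essential light chain, was at 4246, 4930.1 and 4659 FPKM in SOL OC, against 260, 333 and 347 FPKM in GAS OC (log2 fold change 4.74, standard error 0.86, adjusted p = 0.000225). The slow troponin subunits Tnnc1, Tnni1 and Tnnt1 and the slow tropomyosin Tpm3 had log2 fold changes of 4.27, 4.16, 4.58 and 5.10. Atp2a2, the calcium pump of slow fibers, was at 2353, 2093 and 2689 FPKM in SOL OC, against 60.0, 101 and 97.0 FPKM in GAS OC. The smallest change in the list, 1.74, was that of Actn2, the alpha-actinin of all fibers, with a mean of 1834 ± 63.7 FPKM in SOL OC against 482 ± 74.9 FPKM in GAS OC (SD, n = 3 each). Every SOL OC library lay above every GAS OC library for each of the 14 genes. The share of all genes whose libraries lie apart in this way was not counted.

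Fast contractile genes were lower in SOL OC, but by very unequal amounts. Of 15 genes 10 were lower and none was higher, with a median log2 fold change of -1.72, beside 17.8% of all genes lower. All 15 reached 1 FPKM, and of the 10955 such genes 2806 were lower. Myh4 (gene ID 17884, chromosome 11, 67237812 to 67260447), the myosin of type IIb fibers, was at 264, 25.8 and 16.4 FPKM in SOL OC, against 11788, 10357 and 11768 FPKM in GAS OC (log2 fold change -7.13, standard error 0.99, adjusted p = 1.34e-05). Actn3 (gene ID 11474, chromosome 19, 4861216 to 4877909), the alpha-actinin of fast fibers, was at 62.9, 8.85 and 5.87 FPKM in SOL OC, against 3753, 2746 and 3279.8 FPKM in GAS OC (log2 fold change -7.67, standard error 0.89, adjusted p = 1.67e-06). Pvalb, a calcium buffer of fast fibers, was at 157, 32.3 and 19.2 FPKM in SOL OC, against 6934, 5797 and 6622 FPKM in GAS OC. Mybpc2, the fast myosin binding protein C, was at 93.3, 17.2 and 11.3 FPKM in SOL OC, against 2683, 2129 and 2288 FPKM in GAS OC. For these 4 genes SOL OC replicate 3 was the highest of the SOL OC libraries and still far below GAS OC. Without it their log2 fold changes were -8.39 for Myh4, -8.70 for Actn3, -7.63 for Pvalb and -7.46 for Mybpc2, against -6.73 for Pvalb and -6.54 for Mybpc2 with it.

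**Figure D2:**
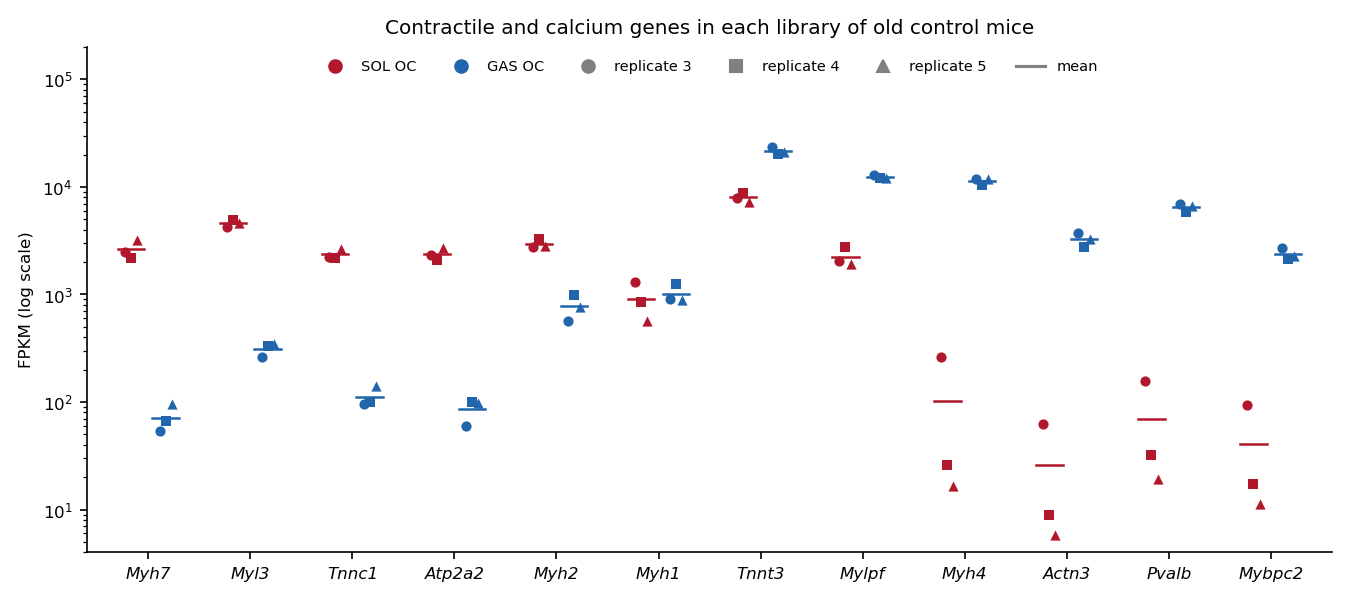
FPKM on a log axis of 12 contractile and calcium genes in the SOL OC libraries (red, left) and GAS OC libraries (blue, right), with the replicate as the symbol and the mean as a line. Myh7 lies between 2197 and 3206 FPKM in SOL OC and under 100 FPKM in GAS OC, Myh1 overlaps between the muscles, and Myh4, Actn3, Pvalb and Mybpc2 are highest in replicate 3 among the SOL OC libraries.

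A second set of fast genes was abundant in both muscles. Mylpf, the fast regulatory light chain, was at 2059, 2749 and 1926 FPKM in SOL OC, against 12964, 12199 and 12230.1 FPKM in GAS OC (adjusted p = 8.18e-08), a mean of 2245 ± 442 FPKM in SOL OC against 12464 ± 433 FPKM in GAS OC (SD, n = 3 each). Myl1, the fast essential light chain, averaged 2108 ± 401 FPKM in SOL OC, against 10459 ± 332 FPKM in GAS OC (SD, n = 3 each, log2 fold change -1.72, adjusted p = 3.27e-08). For the fast troponins and Tpm1 the call rested on the scaling. Tnnt3, the fast troponin T, was at 7896, 8800.4 and 7291 FPKM in SOL OC, against 23397, 20357 and 21187 FPKM in GAS OC, yet its log2 fold change was -0.00 after quantile normalization and -1.44 without it. Tnnc2 was at -0.01 with and -1.55 without the normalization, Tnni2 at -0.47 and -1.65, and Tpm1 at -0.46 and -1.94. These genes are among the most abundant of both muscles, where the normalization sets values by rank. Without it, and with median ratio scaling, 14 of the 15 genes were lower.

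Of the 8 myosin heavy chains 5 were higher and 2 lower in SOL OC. All 8 reached 1 FPKM, and 53.3% of such genes and 37.4% of all genes were called. Myh2, the myosin of type IIa fibers, was at 2758, 3275 and 2824 FPKM in SOL OC, against 571, 997 and 768 FPKM in GAS OC (log2 fold change 1.84, standard error 0.44, adjusted p = 0.00254). Myh1, the myosin of type IIx fibers, was at 1299.7, 854 and 569 FPKM in SOL OC, against 909, 1239 and 890 FPKM in GAS OC, and the groups overlapped (log2 fold change -0.49, standard error 0.42, adjusted p = 0.413). In SOL OC the mean levels ran Myh2 (2952 ± 281 FPKM), Myh7 (2634 ± 518), Myh1 (908 ± 368) and Myh4 (102 ± 140), and the libraries of Myh2 and Myh7 overlapped. In GAS OC they ran Myh4 (11304 ± 820 FPKM), Myh1 (1013 ± 196), Myh2 (779 ± 213) and Myh7 (71.8 ± 20.9), and those of Myh1 and Myh2 overlapped. Of the minor myosins, Myh7b had a log2 fold change of 3.46, Myh6 of 4.32 and embryonic Myh3 of 2.61, all higher, and perinatal Myh8 of -1.60. Myh6 and Myh7 are near-identical neighbours, so the 83.5 to 114 FPKM of Myh6 in SOL OC, against 3.07 to 4.48 FPKM in GAS OC, are uncertain.

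The start regions of paired slow and fast genes are shown because their products do the same task in fibers of different type and moved in opposite directions. From RefSeq (GRCm38.p6), 250 bases before to 50 bases after the gene start are printed for the essential light chains Myl3 at chr9:110763428-110763727 (plus strand) and Myl1 at chr1:66945007-66945306 (minus strand), and for the calcium store proteins Casq2 at chr3:102086165-102086464 (plus strand) and Casq1 at chr1:172219846-172220145 (minus strand). Capitals mark the E-box (CANNTG), which myogenic factors can bind, the MCAT element (CATTCC on either strand), and the MEF2 motif, found on either strand.
Myl3: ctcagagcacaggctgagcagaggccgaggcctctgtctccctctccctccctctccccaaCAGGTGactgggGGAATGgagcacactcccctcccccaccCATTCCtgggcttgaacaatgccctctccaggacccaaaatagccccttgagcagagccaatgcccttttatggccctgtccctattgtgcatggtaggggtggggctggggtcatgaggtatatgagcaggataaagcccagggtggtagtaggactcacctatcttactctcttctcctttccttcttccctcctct
Myl1: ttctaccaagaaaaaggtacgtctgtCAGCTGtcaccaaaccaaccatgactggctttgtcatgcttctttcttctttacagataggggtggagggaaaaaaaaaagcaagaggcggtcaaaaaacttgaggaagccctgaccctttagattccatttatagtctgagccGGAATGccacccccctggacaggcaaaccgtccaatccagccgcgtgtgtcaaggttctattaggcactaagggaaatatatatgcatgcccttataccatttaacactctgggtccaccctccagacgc
Casq2: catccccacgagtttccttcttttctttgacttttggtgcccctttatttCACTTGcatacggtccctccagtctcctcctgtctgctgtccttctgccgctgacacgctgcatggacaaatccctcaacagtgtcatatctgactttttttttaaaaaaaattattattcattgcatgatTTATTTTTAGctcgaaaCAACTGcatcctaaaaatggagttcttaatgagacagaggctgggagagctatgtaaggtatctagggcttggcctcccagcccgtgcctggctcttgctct
Casq1: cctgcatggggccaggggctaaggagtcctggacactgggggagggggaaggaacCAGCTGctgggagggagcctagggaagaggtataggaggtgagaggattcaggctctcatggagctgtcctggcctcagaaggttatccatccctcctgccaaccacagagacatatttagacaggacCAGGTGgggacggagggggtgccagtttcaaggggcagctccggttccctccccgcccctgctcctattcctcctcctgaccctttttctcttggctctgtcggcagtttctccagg
Casq2, the slow form, was at 123, 154 and 161 FPKM in SOL OC, against 8.47, 15.6 and 13.6 FPKM in GAS OC (log2 fold change 3.40, adjusted p = 2.12e-06). Casq1, the fast form, was at 404, 474 and 416 FPKM in SOL OC, against 1434, 1435 and 1511 FPKM in GAS OC (log2 fold change -1.93, adjusted p = 5.87e-10). All 18 promoters that matched 13 of the 14 slow contractile genes held an E-box, as did 9 of the 11 promoters that matched 10 of the 15 fast contractile genes, beside 72.3% of all 32851 promoters of this length. The MCAT element was in 3 of the slow, 5 of the fast and 14.7% of all promoters, and the MEF2 motif in 2 of the slow, 3 of the fast and 3.19% of all. A match is only a match of letters in this window.

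Genes of calcium handling and excitability, a list that also holds Atp2a2, Pvalb, Casq1 and Casq2 from above, went in both directions. Of 27 genes 9 were higher and 10 lower, and 6 higher and 13 lower with median ratio scaling. In this list 26 genes reached 1 FPKM, and 53.3% of such genes and 37.4% of all genes were called. Mrln encodes myoregulin, a small protein that restrains the calcium pump of the sarcoplasmic reticulum. It was at 8.65, 8.13 and 8.41 FPKM in SOL OC, against 77.3, 54.7 and 69.0 FPKM in GAS OC (log2 fold change -2.92, adjusted p = 2.28e-10). Of the pump's other small regulators, named after their values were seen, Sln (sarcolipin) and Pln (phospholamban) were higher in SOL OC, Sln at 37.0 ± 5.82 FPKM in SOL OC against 5.78 ± 3.91 FPKM in GAS OC and Pln at 8.03 ± 1.2 FPKM in SOL OC against 1.37 ± 0.526 FPKM in GAS OC (SD, n = 3 each). The kinase Camk2a and the chloride channel Clcn1 were lower, with log2 fold changes of -2.16 and -0.70. Cacnb1, a subunit of the voltage sensor, averaged 73.9 FPKM in SOL OC against 75.2 FPKM in GAS OC, and Trdn, a partner of the calcium release channel, averaged 237 FPKM in SOL OC against 244 FPKM in GAS OC. Both overlapped between the muscles and did not pass the test.

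**Figure D3:**
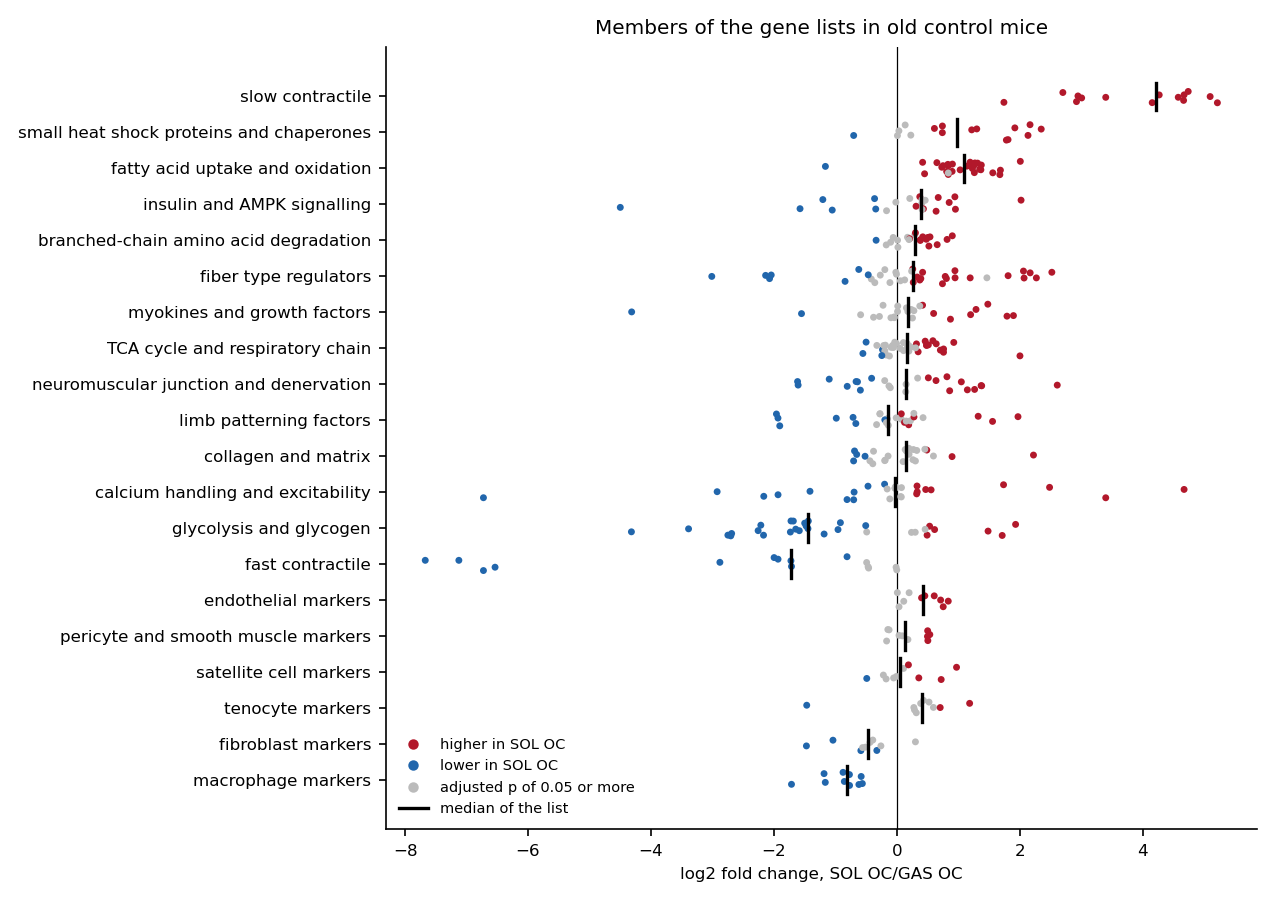
Log2 fold change of SOL OC/GAS OC (horizontal) of every member of 20 gene lists, with the median of each list as a black bar and genes past the test in color. The slow contractile list has a median of 4.21 and the fast contractile list one of -1.72, all 10 macrophage markers are lower, and 28 of 30 fatty acid genes are higher. Over all genes 17.8% are lower and 19.6% higher.

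Energy metabolism was split by fuel. Of 31 genes of glycolysis and glycogen 21 were lower and 6 higher, with a median log2 fold change of -1.45. Over all genes 17.8% were lower and 19.6% higher. All 31 reached 1 FPKM, and of the 10955 such genes 2806 were lower and 3031 higher. Pygm, the glycogen phosphorylase of muscle, was at 862, 754 and 679 FPKM in SOL OC, against 3589, 3247 and 3462 FPKM in GAS OC (log2 fold change -2.21, standard error 0.10, adjusted p = 2.35e-11). Ldha, which makes lactate, was at 390, 420 and 339 FPKM in SOL OC, against 1552, 1575 and 1559 FPKM in GAS OC (log2 fold change -2.26, adjusted p = 2.35e-11). Eno3, Pfkm, Pgam2 and the phosphorylase kinase subunit Phkg1 had log2 fold changes of -2.17, -1.59, -1.72 and -2.69. Slc16a3, which exports lactate, was at 9.88, 4.35 and 3.90 FPKM in SOL OC, against 139, 101 and 130 FPKM in GAS OC. The higher members included, named after their values were seen, Ldhb, whose enzyme favors lactate use, and Slc16a1, the lactate importer, with log2 fold changes of 1.93 and 1.49. The call of Ldhb was lost without GAS OC replicate 3, SOL OC replicate 4 or SOL OC replicate 5 (adjusted p up to 0.0793). The glycogen makers Gbe1, Gyg and Gys1 and the hexokinase Hk2, also named after their values were seen, were the other 4. Ppp1r3a and Ppp1r3c, which target a phosphatase to glycogen, had log2 fold changes of -0.49 and 0.24 and did not pass.

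Genes of fatty acid uptake and oxidation were higher in 28 of 30 cases, with a median log2 fold change of 1.09, beside 19.6% of all genes higher. All 30 reached 1 FPKM, and of the 10955 such genes 3031 were higher. Acsl1, which activates fatty acids, was at 222, 184 and 230 FPKM in SOL OC, against 65.3, 77.3 and 76.3 FPKM in GAS OC (log2 fold change 1.56, standard error 0.14, adjusted p = 9.49e-08). Cpt1b, the mitochondrial gate for fatty acids, was at 304, 272 and 298 FPKM in SOL OC, against 130, 146 and 144 FPKM in GAS OC (log2 fold change 1.14, adjusted p = 2.14e-06). The beta-oxidation enzymes Acadm, Hadhb, Hadh and Decr1 had log2 fold changes of 1.27, 1.31, 1.35 and 1.03. Pdk4, which holds back glucose oxidation, had 168, 139 and 169 FPKM in SOL OC, against 93.4, 94.3 and 87.2 FPKM in GAS OC, and did not pass (log2 fold change 0.84, adjusted p = 0.187), though it did with the mouse as a block (adjusted p = 0.015). Lipe, the hormone-sensitive lipase, passed (0.73, adjusted p = 0.0375) but neither with the block (adjusted p = 0.0650) nor without any 1 of 5 of the 6 libraries, SOL OC replicates 3, 4 and 5 and GAS OC replicates 3 and 5 (adjusted p up to 0.134). Ucp3, an uncoupling protein named after its value was seen, was the single lower gene, at 19.2, 15.9 and 18.0 FPKM in SOL OC, against 32.8, 39.3 and 46.0 FPKM in GAS OC (log2 fold change -1.16, adjusted p = 0.0135, and 0.0519 without GAS OC replicate 5).

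The TCA cycle and respiratory chain differed less than fat oxidation. Of 41 genes 14 were higher and 4 lower, a total of 18, and the median log2 fold change was 0.17. All 41 reached 1 FPKM, and 53.3% of such genes and 37.4% of all genes were called. Ogdh, Sdhc, Ndufs1 and Uqcrc2 were higher by 0.76, 0.71, 0.76 and 0.64 on the log2 scale. Ndufb8, another subunit of complex I, was lower at 373, 513 and 370 FPKM in SOL OC, against 565, 662 and 555 FPKM in GAS OC (log2 fold change -0.55, adjusted p = 0.000238). Mdh2 and Slc25a4, the carrier that swaps ADP for ATP, had log2 fold changes of -0.00 and -0.06. With median ratio scaling 8 of the list were higher and 5 lower, and with the mouse as a block 12 were higher and 5 lower. Without quantile normalization 14 were higher and 1 lower. Genes of branched-chain amino acid degradation were higher in 12 of 21 cases and lower in 1, beside the same 53.3% and 37.4%, and all 21 reached 1 FPKM. The lower gene was Bcat2, the first enzyme of the pathway, named after its value was seen (-0.34, adjusted p = 0.0316). It no longer passed without any 1 of the 6 libraries (adjusted p up to 0.0765). With median ratio scaling 9 of these 21 genes were higher and 1 lower. Ivd, Dld and Oxct1 had log2 fold changes of 0.82, 0.66 and 0.90.

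Insulin and AMPK genes held a contrast within 1 enzyme. AMPK, a sensor of low energy, is built from alpha, beta and gamma subunits. Prkag3, the gamma subunit of glycolytic muscle, was at 5.25, 3.94 and 2.57 FPKM in SOL OC, against 118, 88.8 and 103 FPKM in GAS OC (log2 fold change -4.50, standard error 0.22, adjusted p = 1.1e-10). Prkab2 and Prkag2 were lower by smaller amounts (-1.57 and -1.05), and the catalytic subunit Prkaa2 averaged 33.8 FPKM in SOL OC, against 36.8 FPKM in GAS OC, and did not pass. Irs2, an adaptor of the insulin receptor, was at 15.1, 17.5 and 18.4 FPKM in SOL OC, against 2.76, 3.23 and 2.79 FPKM in GAS OC (log2 fold change 2.02, adjusted p = 7.79e-06). The receptor Insr (0.95) and Mtor (0.85) were also higher. In all 9 of the 22 genes were higher and 6 lower. All 22 reached 1 FPKM, and 53.3% of such genes and 37.4% of all genes were called. With the mouse as a block 11 were higher and 6 lower.

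Regulators of fiber type were at far lower levels than the contractile genes. Of 36 genes 18 were higher and 7 lower, beside 37.4% of all genes called and 53.3% of those that reached 1 FPKM. Prox1 (gene ID 19130, chromosome 1, 190118035 to 190170827), a homeobox factor of slow fibers, was at 6.94, 5.37 and 8.43 FPKM in SOL OC, against 0.163, 0.271 and 0.278 FPKM in GAS OC (log2 fold change 2.52, standard error 0.19, adjusted p = 1.22e-08). Maf and Mafa, large Maf factors that drive the type IIb program, were lower, with Maf at 3.62, 2.65 and 2.69 FPKM in SOL OC, against 29.9, 24.7 and 30.3 FPKM in GAS OC (log2 fold change -3.01, adjusted p = 7.3e-10). Eya4 (-2.13) and Myod1 (-2.04) were lower too, and Mef2d was higher (0.81). Nfatc3 and Myf5 did not pass, with log2 fold changes of -0.01 each. Chosen after their values were seen, the estrogen-related receptors Esrrb and Esrrg, which drive oxidative genes, averaged 16.6 and 28.8 FPKM in SOL OC, against 2.25 and 5.48 FPKM in GAS OC.

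Of 27 factors that pattern the limb 7 were higher and 7 lower, beside 37.4% of all genes called and 53.3% of the genes that reached 1 FPKM. Hoxd10 (gene ID 15430, chromosome 2, 74684273 to 74695106) was at 0.307, 0.286 and 0.253 FPKM in SOL OC, against 3.64, 2.69 and 4.26 FPKM in GAS OC (log2 fold change -1.93, adjusted p = 1.03e-06). Hoxd9 and Hoxc10 were lower as well (-1.90 and -0.98). Tbx3 was higher, at 4.95, 5.49 and 5.39 FPKM in SOL OC, against 1.2, 1.27 and 1.05 FPKM in GAS OC (log2 fold change 1.32, adjusted p = 8.81e-08). Hoxc9 and Meox2 overlapped between the muscles and did not pass.

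Secreted factors showed 1 very large difference. Mstn (gene ID 17700, chromosome 1, 53061640 to 53068079) encodes myostatin, which restrains muscle growth. It was at 0.735, 0.479 and 0.429 FPKM in SOL OC, against 31.0, 24.1 and 31.8 FPKM in GAS OC (log2 fold change -4.31, standard error 0.31, adjusted p = 5.82e-09). Its relative Gdf11 was lower too (-1.55). Fgf1, Fgf2, Angpt1 and Fndc5 were higher, Fgf1 at 41.4, 40.8 and 44.7 FPKM in SOL OC, against 7.42, 11.8 and 10.8 FPKM in GAS OC (log2 fold change 1.90, adjusted p = 4.74e-06). In all 8 of 25 genes were higher and 2 lower, a total of 10 and a share near the 37.4% of all genes called. Angptl4 and Bmp5 were near 1 FPKM in both muscles and did not pass.

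Genes of the neuromuscular junction and of denervation went both ways, 10 higher and 8 lower of 24. In this list 21 genes reached 1 FPKM, and 53.3% of such genes and 37.4% of all genes were called. Chrnd, a subunit of the acetylcholine receptor, was at 5.36, 6.39 and 6.31 FPKM in SOL OC, against 0.921, 1.84 and 1.29 FPKM in GAS OC (log2 fold change 1.38, adjusted p = 2.55e-06). The other subunits of the list, named after their values were seen, went both ways. Chrna1 was higher (1.05), Chrne and Chrnb1 were lower (-0.81 and -0.64), and Chrng did not pass. Lrp4, the receptor for agrin, and the adhesion molecule Ncam1 were higher by 0.82 and 1.37, and the stress gene Gadd45a was lower at 8.56, 10.9 and 7.22 FPKM in SOL OC, against 17.2, 40.1 and 27.0 FPKM in GAS OC. Fbxo32, a ubiquitin ligase of atrophy, did not pass (0.15, adjusted p = 0.656). Small heat shock proteins and chaperones were higher in 11 of 16 cases and lower in 1, Hspb8, named after its value was seen (-0.70). Hspb7 was at 1564, 1674 and 1688 FPKM in SOL OC, against 387, 276 and 221 FPKM in GAS OC (log2 fold change 2.35, adjusted p = 3.01e-06). The inducible chaperones Hspa1a and Hspa1b, which are near-identical and may share reads, were higher by 2.17 and 2.14, and Xirp1, a Xin repeat protein, by 1.81. Its relative Xirp2 was at 449, 383 and 537 FPKM in SOL OC, against 200, 190 and 176 FPKM in GAS OC.

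Further genes stood among the 15 largest differences in each direction at a mean of at least 1 FPKM in the higher muscle. Xpo4, a nuclear transport receptor, was at 27.1, 25.7 and 37.3 FPKM in SOL OC, against 1.09, 1.68 and 1.67 FPKM in GAS OC (log2 fold change 3.48, standard error 0.17, adjusted p = 8.13e-11). Myom3, a protein of the M-band, and Ablim1, an actin-binding protein, had log2 fold changes of 3.35 and 3.45. Among the lower genes, Mss51 was at 1.59, 0.505 and 0.486 FPKM in SOL OC, against 148, 215 and 145 FPKM in GAS OC (log2 fold change -6.55, adjusted p = 1.11e-08). Odf3l2 was at 0, 0.0845 and 0 FPKM in SOL OC, against 46.3, 27.8 and 36.3 FPKM in GAS OC. Cib2 (-4.77), the myosin binding protein Mybph (-5.31), the spermine oxidase Smox (-4.45) and the antisense RNA Myhas of the fast myosin cluster (-4.54) were lower too. The kit marks strand, but the counting setting is not given in the sources used here, so reads of Myhas and of the myosins on the other strand may not be fully apart.

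Near-identical copies took 4 of these top places and are uncertain. Rps27 was at 143, 165 and 164 FPKM in SOL OC, against 1.58, 1.3 and 1.05 FPKM in GAS OC, while its retrocopy Rps27rt was at 0.827, 0.692 and 0.322 FPKM in SOL OC, against 369, 307 and 320 FPKM in GAS OC. In each of the 24 libraries of the study 1 copy was over 10 times the other, and it was Rps27 in 17 of them, among them 4 of the 6 GAS YC and GAS OE libraries. Their sum was 158 ± 12.4 FPKM in SOL OC against 333 ± 32.6 FPKM in GAS OC (SD, n = 3 each), and the call of Rps27 (log2 fold change 6.02, adjusted p = 0.0294) was lost without any 1 of the 6 libraries (adjusted p up to 0.0691). Atp6v0c-ps2 (log2 fold change -4.53) behaved alike: it was at 0.0123, 0.0192 and 84.1 FPKM in SOL OC, against 103, 105 and 104 FPKM in GAS OC, but with its parent Atp6v0c the sum was 94.4 ± 6.36 FPKM in SOL OC against 107 ± 0.659 FPKM in GAS OC. Without SOL OC replicate 3 or 4 its own call was lost (adjusted p up to 0.103). Hbb-b1 (-5.74) is 1 of several beta globin genes, whose sum was 6.32, 136 and 171 FPKM in SOL OC, against 57.1, 269.9 and 194 FPKM in GAS OC and so overlapped.

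Several markers of other cell types differed between the muscles. All 10 macrophage markers were lower in SOL OC, with a median log2 fold change of -0.81, beside 17.8% of all genes lower. All 10 reached 1 FPKM, and of the 10955 such genes 2806 were lower. In bulk tissue fewer cells of a type and less RNA per cell cannot be told apart. Tyrobp, an adaptor of myeloid receptors, was at 2.71, 1.32 and 2.12 FPKM in SOL OC, against 7.16, 7.57 and 8.31 FPKM in GAS OC (log2 fold change -1.71, standard error 0.25, adjusted p = 2.75e-05). Lyz2, the lysozyme of macrophages, was at 32.8, 24.4 and 23.4 FPKM in SOL OC, against 55.5, 61.7 and 64.2 FPKM in GAS OC (log2 fold change -1.18, adjusted p = 0.00111). C1qb, Csf1r, Cd68 and Adgre1 had log2 fold changes of -1.16, -0.77, -0.77 and -0.56. The summed FPKM of the 10 genes ranged between 59.5 and 79.99 in SOL OC and between 126 and 142 in GAS OC. Without quantile normalization 7 of the 10 passed, and with median ratio scaling 8. None of the 10 was at 0. The part of other cell types in the differences of the genes above was not tested.

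Fibroblast markers tended the same way, with 4 of 10 lower and none higher, and 7 lower with the mouse as a block. Over all genes 17.8% were lower and 19.6% higher. Of the 10955 genes that reached 1 FPKM, 2806 were lower and 3031 higher. Smoc2 was at 21.0, 19.8 and 20.2 FPKM in SOL OC, against 51.9, 58.6 and 58.4 FPKM in GAS OC (log2 fold change -1.47, adjusted p = 7.75e-08), and Dpt had a log2 fold change of -1.04. Col1a1 and Col3a1 overlapped between the muscles. Endothelial markers went the other way, with 6 of 10 higher and none lower. Pecam1 was at 31.5, 30.6 and 34.5 FPKM in SOL OC, against 16.2, 18.6 and 17.9 FPKM in GAS OC (log2 fold change 0.76, adjusted p = 5.37e-05), and the receptors Flt1 and Kdr were higher by 0.84 and 0.71. Of the 10 satellite cell markers 4 were higher and 1 lower (2 lower with the block), with a median log2 fold change of 0.05. Pax7, under 1 FPKM in both muscles, was at 0.882, 0.712 and 0.927 FPKM in SOL OC, against 0.286, 0.342 and 0.388 FPKM in GAS OC. Cxcr4, named after its value was seen, was the lower marker (-0.49, adjusted p = 0.00187). Of the 10 tenocyte markers 2 were higher and 1 lower, a smaller share than the 37.4% of all genes, and with the block 1 was higher and 1 lower. Of 24 collagen and matrix genes 3 were higher and 4 lower, a smaller share than the 37.4% of all genes, with 4 higher and 3 lower with the block and 4 higher and 1 lower without quantile normalization. Postn, periostin, was at 16.4, 8.94 and 34.0 FPKM in SOL OC, against 2.26, 2.67 and 2.39 FPKM in GAS OC (log2 fold change 2.23, adjusted p = 0.000312), and Col6a1 (-0.65) and Col6a3 (-0.69) were lower. Col6a1 did not pass without GAS OC replicate 5 or SOL OC replicate 4 (adjusted p up to 0.0694).

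**Figure D4:**
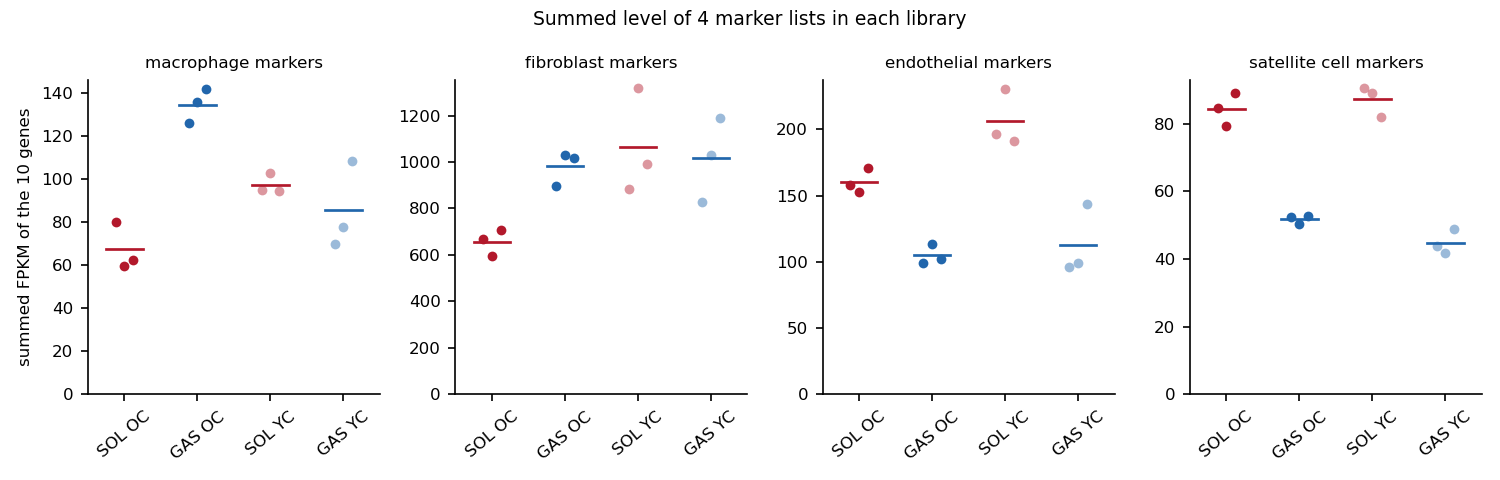
Summed FPKM of the 10 macrophage, fibroblast, endothelial and satellite cell markers in each library of SOL OC, GAS OC, SOL YC and GAS YC, with the mean as a line. The macrophage sum lies between 59.5 and 79.99 in SOL OC and between 126 and 142 in GAS OC, and in young mice between 94.5 and 103 in SOL YC and between 69.7 and 108 in GAS YC.

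The muscle difference of old mice was then set against that of young mice, which asks whether the muscles differed to the same extent at both ages. In YC mice 7198 genes differed (38.3%). Of the OC genes 76.8% were also called in YC, and these 5394 genes made up 74.9% of the YC list, with the same direction in 5390 and the opposite in 4. In OE mice 7271 genes differed (38.7%), and 5838 were shared with OC, 83.1% of the OC list and 80.3% of the OE list. The test of the difference between the muscle differences passed for far fewer genes: 45 for OC minus YC (0.239%), 31 of them toward SOL in old mice, and 5 for OC minus OE (0.0266%). With the mouse as a block there were 18 and 0, the 0 beside 773 genes at an unadjusted p under 0.05. The 45 became 136 without GAS YC replicate 3, and 25 to 28 without any 1 of the 3 GAS OC libraries, GAS YC replicate 1 or 2, or SOL YC replicate 1 or 2. The 5 became 9 without SOL OE replicate 1 and 3 without GAS OC replicate 5, GAS OE replicate 2 or SOL OE replicate 2.

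Among the 45 genes, those of at least 1 FPKM in a group and the smallest adjusted p showed 2 patterns. The first were genes higher in GAS of old mice. Cpne2 (gene ID 234577, chromosome 8, 94532674 to 94570529), a copine that binds membranes with calcium, was at 3.14, 2.35 and 2.92 FPKM in SOL OC, against 19.2, 12.4 and 15.3 FPKM in GAS OC, while it had 4.16, 4.03 and 2.89 FPKM in SOL YC, against 4.09, 5.09 and 3.44 FPKM in GAS YC. Its log2 fold change between muscles was -2.27 in OC and -0.54 in YC, a difference of -1.73 (standard error 0.23, adjusted p = 0.00174, and 0.00666 with the mouse as a block). Kcnab1, a potassium channel subunit, was at 0.347, 0.496 and 0.289 FPKM in SOL OC, against 5.77, 4.37 and 6.92 FPKM in GAS OC, while it had 0.328, 0.788 and 0.444 FPKM in SOL YC, against 1.28, 1.37 and 0.814 FPKM in GAS YC (difference -1.57, adjusted p = 0.00174). Dkk3, a secreted protein of the Dickkopf family, was at 0.604, 0.808 and 1.29 FPKM in SOL OC, against 9.60, 10.1 and 15.2 FPKM in GAS OC, while it had 1.26, 1.57 and 0.819 FPKM in SOL YC, against 2.68, 4.17 and 3.51 FPKM in GAS YC (difference -1.48, adjusted p = 0.00536). For all 3 genes the GAS OC libraries lay apart from those of the other 3 groups.

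The second pattern was of genes higher in SOL of old mice. Amph, amphiphysin, a membrane-bending protein, was at 2.54, 2.64 and 3.76 FPKM in SOL OC, against 0.0827, 0.273 and 0.356 FPKM in GAS OC, while it had 0.776, 0.576 and 0.618 FPKM in SOL YC, against 0.0438, 0.0974 and 0.249 FPKM in GAS YC (difference 1.15, standard error 0.17, adjusted p = 0.00536). Gnal, a G protein alpha subunit, was at 3.63, 2.99 and 3.40 FPKM in SOL OC, against 0.210, 0.203 and 0.229 FPKM in GAS OC, while it had 1.18, 1.24 and 1.02 FPKM in SOL YC, against 0.161, 0.212 and 0.146 FPKM in GAS YC (difference 1.04, adjusted p = 0.0164). Both passed with the mouse as a block too (adjusted p = 0.0191 each). In OC minus OE, Cdc27, a subunit of the anaphase-promoting complex, was at 5.91, 5.31 and 5.36 FPKM in SOL OC, against 4.26, 4.89 and 5.20 FPKM in GAS OC, while it had 5.92, 5.47 and 5.57 FPKM in SOL OE, against 2.45, 2.25 and 1.86 FPKM in GAS OE (difference -0.80, adjusted p = 0.00188, and 0.215 with the block).

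**Figure D5:**
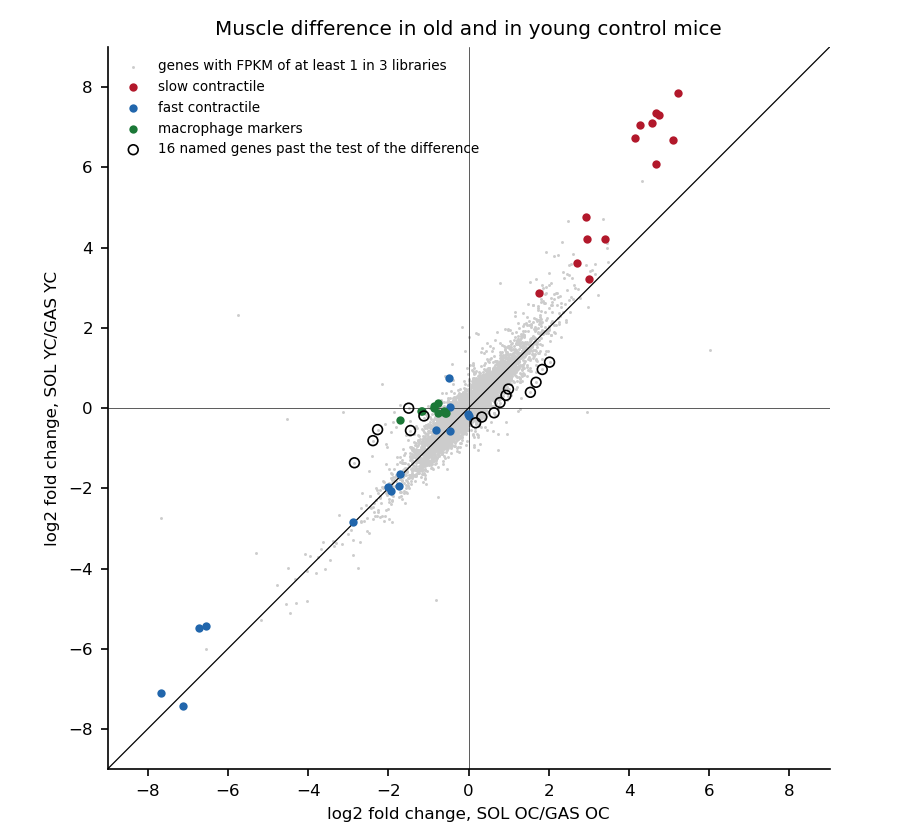
Log2 fold change of SOL OC/GAS OC (horizontal) against that of SOL YC/GAS YC (vertical) for the 10955 genes that reached 1 FPKM in 3 or more OC libraries, with the diagonal as a line. Slow contractile genes (median 4.21 in OC and 6.38 in YC) lie above the diagonal, macrophage markers lie left of 0 in OC and near 0 in YC, and circles mark 16 named genes past the test of the difference.

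For gene lists no member passed the test of the difference between OC and YC, and the counts at an unadjusted p under 0.05 are given beside those of all genes, 1767 (9.4%), 702 of them toward GAS in old mice (3.74%). Of the 10 macrophage markers 8 were at such a p, all toward GAS in old mice. Their median log2 fold change between muscles was -0.81 in OC, -0.07 in YC and -0.77 in OE, and none of the 10 was called in YC. Tyrobp had a difference of -1.42 (standard error 0.36, adjusted p = 0.162). Of 24 collagen and matrix genes 12 were at such a p and toward GAS in old mice, with a median log2 fold change of 0.15 in OC and 0.67 in YC, and 12 were higher in SOL YC where 3 were higher in SOL OC. Their summed FPKM was lower in old mice in both muscles. It was between 248.7 and 396.3 in SOL OC against 630.5 to 1065.2 in SOL YC. In GAS OC it was between 207.8 and 281.9, against 310.0 to 456.0 in GAS YC. Of 10 fibroblast markers 6 were at such a p and toward GAS in old mice. The fibroblast list shares Col1a1 and Col3a1 with the collagen and matrix list, so these counts are not separate. The slow contractile genes had a median of 4.21 in OC, 6.38 in YC and 4.76 in OE. In GAS YC their levels were uneven between mice, with Myh7 at 5.44, 0.635 and 113 FPKM in replicates 1, 2 and 3, and the difference of -2.63 for Myh7 had a standard error of 1.63 (adjusted p = 0.664). For OC minus OE 641 genes were at an unadjusted p under 0.05 (3.41%).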

How the data were processed

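RNA sequencing was done on SOL and GAS of young and old, sedentary and exercised mice (24 libraries in 8 groups of 3). Per the paper's methods, libraries were made with a stranded mRNA kit and read in pairs, and the submitters' processing notes name HISAT2 2.1.0, StringTie 1.3.4d and the build mm10. The deposited FPKM values were made by the authors, who added 1, took log2 and quantile normalized over all libraries, and the deposited log2 values hold the result. The same steps repeated on the FPKM gave these values to within 5e-09. Fold changes, test statistics, p-values and group means of the authors' own comparisons were in the table and were not used.

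Genes were fitted with limma 3.58.1 (trend, R 4.3.3) on the log2 values of all 24 libraries in 8 groups, without a block as in the methods of the study, and p-values were two-sided and Benjamini-Hochberg adjusted over 18795 genes. Python 3.11.15, pandas 2.3.3, numpy 2.4.6 and matplotlib 3.10.9 were used for summaries and figures. Each library is 1 muscle of 1 mouse, and SOL and GAS libraries with the same number in a group were taken to be from the same mouse, since each group comprised 3 mice and no label names the animal. The deviations from the group means correlated between SOL and GAS of the same number at 0.12, -0.01 and -0.03 in OC for numbers 3, 4 and 5 over 10955 genes. Libraries of a muscle correlated at 0.991 to 0.993 within OC, and no gene above 0 FPKM had identical values in any of the 15 pairs of the 6 libraries. The mouse as a block, other scalings, another pseudocount (0.1), a filter (1 FPKM in 3 libraries), an equal-variance test on 6 libraries and the omission of each library were tried.

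The genes named were all contractile and myosin genes, the 6 of each other list with the smallest and the 2 with the largest adjusted p, the 15 per direction with the largest log2 fold change among called genes of at least 1 FPKM in the higher muscle, and up to 10 per direction of each difference between muscle differences; others are marked in the text. The comparison and the lists were chosen with earlier results of these data known. Coordinates and promoters are from RefSeq (GRCm38.p6), in which 18758 gene IDs matched. Symbols that a spreadsheet had turned into dates were restored from gene IDs in 25 rows. Some genes that the naming rule selects are not reported here.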

Additional observations from a re-analysis of the deposited data

Results flagged for a closer look

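A total of 17 of the named genes differed between groups in the SOL/GAS difference itself (limma, adjusted p under 0.05), and each value here is the log2 fold change of SOL OC/GAS OC minus that of the other mice. In OC minus YC, toward GAS in old mice, stood the copine Cpne2 (-1.73), the potassium channel subunit Kcnab1 (-1.57), keratin Krt18 (-1.49), the secreted Dkk3 (-1.48), Pifo (-0.92) and Tmem132b (-0.89). With the mouse as a block Pifo (adjusted p = 0.0820) and Tmem132b (adjusted p = 0.0809) no longer passed. Krt18 averaged 0.266 FPKM in SOL OC against 2.40 FPKM in GAS OC, and 0.0388 FPKM in SOL YC against 0.0169 FPKM in GAS YC.

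Toward SOL in old mice were amphiphysin Amph (1.15), the G protein subunit Gnal (1.04), 3632451O06Rik (0.88), Rp1 (0.88), the potassium channel Kcnj3 (0.75), Ccdc64 (0.65), the transglutaminase Tgm5 (0.62), Paqr3 (0.55), the growth factor receptor Met (0.54) and Chml (0.52). With the block the adjusted p was 0.126 for Paqr3, 0.0577 for Rp1, 0.0552 for Ccdc64 and 0.172 for Met, and under 0.05 for the other 6. Kcnj3 averaged 1.36 FPKM in SOL OC against 0.405 FPKM in GAS OC, and 0.0511 FPKM in SOL YC against 0.0859 FPKM in GAS YC. In OC minus OE the genes were Tgm5 (0.49) and Cdc27 (-0.80), and neither passed with the block (adjusted p = 0.215 each).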

How the results depend on the processing

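The count of 7026 genes ranged between 6037 and 7529 over all alternatives, and was 6985 with the mouse as a replicate block in 24 libraries and 6076 with the block in the 6 libraries. The 1070 DEGs became 2154 with a pseudocount of 0.1, which widens the folds of low genes, and ranged between 1012 and 1139 when 1 library was left out. The 45 genes of OC minus YC became 13 with the filter on low FPKM, 22 with the pseudocount of 0.1 and 18 with the replicate block, and ranged between 25 and 136 when 1 library was left out. The 5 genes of OC minus OE became 1 with the filter, 9 with only the libraries compared and 0 with the replicate block, and ranged between 3 and 9 when 1 library was left out. At 0 calls 773 genes had an unadjusted p under 0.05 in limma. The cause of these shifts was not tested. Of 132 genes whose SOL OC/GAS OC fold change was followed, none reversed under any alternative. The pairing changed the call of 2 of them, Pdk4 (now past) and Lipe (no longer past), and the block in the 6 libraries ended 5 calls and added 1. Leaving out quantile normalization ended 3 calls, Adgre1, Bcat2 and Col6a3, and added 4, Tnnc2, Tnni2, Tnnt3 and Tpm1. The depth is unknown, and fold changes near or under 1 FPKM are pressed toward 0.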

Other observations

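The circadian clock is a loop of transcription factors that runs in muscle as in other tissues. Of its 18 genes 4 were higher and 3 lower in SOL OC than in GAS OC. In this list 17 genes reached 1 FPKM, and 53.3% of such genes and 37.4% of all genes were called. Without quantile normalization 8 were higher and 3 lower. The time of death of the mice is not in the sources used here. Bhlhe41, a repressor of the loop, was at 4.64, 5.50 and 6.06 FPKM in SOL OC, against 11.8, 8.06 and 9.82 FPKM in GAS OC (limma, log2 fold change -0.94, adjusted p = 0.000122).

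None of the 10 Schwann cell markers passed the test, and their summed FPKM was between 44.8 and 60.8 in SOL OC and between 52.0 and 89.6 in GAS OC. None of the 10 adipocyte markers passed either, and Cfd, adipsin, was at 47.4, 47.8 and 68.2 FPKM in SOL OC, against 21.6, 76.3 and 27.6 FPKM in GAS OC. The neutrophil gene S100a9 reached 8.39 FPKM in GAS OC replicate 4, where S100a8 was at 6.21 FPKM, and S100a9 lay between 0.461 and 1.99 FPKM in the other 5 libraries. Of the pericyte and smooth muscle markers 4 of 10 were higher in SOL OC, beside 19.6% of all genes, and 3 of 10 with the mouse as a block, without quantile normalization and with median ratio scaling, among them Notch3 (log2 fold change 0.54, adjusted p = 0.00719). Alpha globin Hba-a2 was at 8.27, 129 and 164 FPKM in SOL OC, against 43.1, 180 and 137 FPKM in GAS OC.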
